A study of Mus musculus with 12 samples.

Results

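In the RNA of periosteal stem cells (PSCs), 87 of the 53715 genes listed had a large part of their reads in introns in every library of the main PSC table. A gene was included when the mean of its 5 RPKM values (reads scaled to the exon length of the gene and to the mapped reads of the library) was at least 5 and when its intron share, deposited as intron reads divided by all those counted for the gene, was at least 0.40 in each of the 5 libraries. Of the 5952 genes at that level, 1.46% met the second condition. The genes were thus selected on level and intron share in these 5 libraries, and both are described here without a test. The annotation, a sixth library and the osteoclasts lie outside the rule. The difference between genotypes was not itself used, but the mean takes in 3 libraries of mutant and 2 of control mice. Genes higher in the mutant therefore met the level limit more readily.

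PSCs were sorted by FACS from the periosteum of C57BL/6 mice aged 3 to 6 weeks. The mutant mice were Prmt5 f/d Ctsk-Cre, with one floxed and one deleted allele of Prmt5, and the controls were Prmt5 flox/+ Ctsk-Cre. Both carried the Ctsk-Cre driver and the CAG-CAT-EGFP reporter, so that EGFP marked cells in which Cre had acted. The 5 libraries of the main table are 3 labelled KO and 2 labelled control, a further PSC library labelled control (control 3) stands in a table of its own that was made with another gene annotation, and 6 osteoclast libraries (3 labelled KO, 3 labelled control) came from bone marrow cultures of 11-week-old mice, 72 h after RANKL. The study counts its PSC groups in mice, although the labels tie no library to one animal, and for the osteoclasts p-values measure the spread between libraries, which may be technical.

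Introns are cut out of the pre-mRNA while it is still being made, and reads in introns come from pre-mRNA not yet spliced, from mRNAs that keep an intron and stay in the nucleus, and from other transcripts that lie inside an intron. Very long genes carry much intron sequence on every unfinished transcript, whereas several genes of splicing factors hold detained introns by which the factor limits its own mRNA. Prmt5 methylates arginines of the Sm proteins, the ring at the core of the spliceosomal snRNPs, and loss of Prmt5 is known in other cells to raise the retention of such introns.

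Mapped reads, as implied by the RPKM steps, numbered 13928751, 9932979 and 11625517 in the libraries labelled KO 1 to 3, against 11376004 and 10789161 in those labelled control 1 and 2 and 6958265 in control 3. Prmt5 itself did not separate the groups, with 8.40, 6.31 and 8.08 RPKM in KO 1 to 3, against 6.29 and 8.31 RPKM in control 1 and 2 and 4.32 RPKM in control 3 (log2 fold change 0.05, SE 0.166, adjusted p = 0.868 by limma). RPKM covers the whole gene and not the floxed exons alone, and the libraries are named by their labels throughout. The 3 genes of the positive gate summed to 215 to 242 RPKM in the libraries labelled KO and 224 to 250 RPKM in those labelled control 1 and 2, and the 5 genes of the negative gate to 13.9 to 22.3 RPKM in KO, against 8.41 to 8.72 RPKM in control 1 and 2 and 4.397 RPKM in control 3. Of the negative list Pecam1 (log2 fold change 1.70, SE 0.271, adjusted p = 0.0107 by limma) and Enpep (0.99, SE 0.201, adjusted p = 0.0251) were higher in KO. Some lists of markers of other cell types were high, and their sums overlapped between KO and control 1 and 2. The 6 chondrocyte markers summed to 5998 to 9706 RPKM in KO, 5225 to 6205 RPKM in control 1 and 2 and 5279 RPKM in control 3. Among them Matn3 alone passed (log2 fold change 1.16, SE 0.230, adjusted p = 0.0226 by limma). It had 148, 227 and 139 RPKM in KO, 86.2 and 63.2 RPKM in control 1 and 2 and 77.7 RPKM in control 3. For the 6 neutrophil markers the sums were 1198 to 2039, 1136 to 1935 and 393 RPKM. Other lists separated the groups of the main table, but control 3 did not always lie with control 1 and 2. The 6 erythroid markers summed to 183 to 862 RPKM in KO, against 33.1 to 47.3 RPKM in control 1 and 2 and 1257 RPKM in control 3, the 6 endothelial markers to 4.64 to 14.1 RPKM in KO, against 1.30 to 3.02 RPKM in control 1 and 2 and 0.806 RPKM in control 3, and the 6 periosteal lineage markers to 9994 to 10781 RPKM in KO, against 15623 to 19467 RPKM in control 1 and 2 and 6615 RPKM in control 3. The erythroid sum of control 3 was thus above and its periosteal sum below every KO library. Most of the periosteal sum was Col1a1 and Col1a2, which did not pass (adjusted p = 0.0503 and 0.0719 by limma). Postn alone of the list passed (log2 fold change −1.28, adjusted p = 0.00333 by limma). Prrx1 (−0.23), Twist1 (0.09) and Acta2 (0.45) did not, so the list was mixed. Its median log2 fold change was −0.43, against 0.14 over all genes. By limma 3 of the 6 reached an unadjusted p under 0.05, and edgeR on recovered reads called 3. In a sorted bulk sample fewer cells of a type and less RNA per cell cannot be told apart, and the part of these differences in the results below was not tested.

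Sequences are shown for the members on which the comparisons turn. For Srsf7, Tra2a and Arhgap21, GENCODE M21 (GRCm38) holds a transcript that keeps an intron, and the ends of that intron are printed 5′ to 3′ on the gene's strand, with 6 exon bases and 20 intron bases at each end and the GT and AG dinucleotides in capitals. The introns are chr17:80204388-80205261 on the minus strand for Srsf7 (874 bases), chr6:49245611-49246848 on the minus strand for Tra2a (1238 bases) and chr2:20855396-20855580 on the minus strand for Arhgap21 (185 bases).
Srsf7 intron, 5′ end: aagcagGTatttaattaatgaaggaa
Srsf7 intron, 3′ end: ttttctaacttaaaaaatAGgtcacg
Tra2a intron, 5′ end: aactcaGTaagattgggttttatagg
Tra2a intron, 3′ end: cccccttcatttttctgtAGcagcgg
Arhgap21 intron, 5′ end: cagcatGTaagtgcacgctgcgtctc
Arhgap21 intron, 3′ end: ttttttattttaaattttAGcatgac
All 3 introns begin with GT and end with AG, the dinucleotides of most introns. U2af1, another of the 87 genes, encodes the subunit of U2AF that reads this 3′ AG. The deposited ratio covers all introns of a gene together, so it does not say which intron held the reads.

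For the Rps3a copies described further on, 60 bases of the Rps3a1 transcript (positions 608 to 667 of the GENCODE M21 transcript) are set against the aligned stretch of 2 processed pseudogenes, with each base that differs in capitals.
Rps3a1: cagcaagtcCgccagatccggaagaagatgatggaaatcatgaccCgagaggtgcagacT
Gm5586: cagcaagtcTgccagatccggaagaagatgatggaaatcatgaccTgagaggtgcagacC
Rps3a2: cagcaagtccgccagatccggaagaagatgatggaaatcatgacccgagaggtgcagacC
In this stretch, chosen for holding the most differences, Gm5586 differs from Rps3a1 at 3 positions and Rps3a2 at 1. Over the whole alignment they differ at 12 of 795 and 4 of 792 positions. For Mir6236, the only member annotated as a miRNA, RefSeq (GRCm38.p6) places the mature sequence at chr9:110281353-110281371 on the plus strand, here with the seed (bases 2 to 8) in capitals.
mmu-miR-6236: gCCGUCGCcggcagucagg

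The 87 genes fell into 2 classes by the values themselves. In 18 genes the intron share was 1 in all 5 libraries, which means that every read of the gene was counted as intronic, and in the other 69 genes it lay below 1, with means of 0.415 to 0.991 and a median of 0.560. GENCODE M21 matched 86 of the 87 genes, all but Gm16486. Every one of the 18 genes with a share of 1 has a single exon in that annotation, hence no intron, and none is of the protein-coding type. Of the 69 others, 61 are protein coding and 3 have no annotated intron (Neat1, Gm26917 and Gm43305).

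The class at 1 held structural and small RNAs, processed pseudogenes and single-exon noncoding genes. Its RNAs were both mitochondrial rRNAs (mt-Rnr1 and mt-Rnr2), n-R5-8s1 (annotated as rRNA), Rn7s1, the RNA of the signal recognition particle, Rn7sk, the 7SK RNA that holds P-TEFb inactive, and Mir6236. The pseudogenes were Gm5586, Rps3a2, Gm4202, Gm9800, Gm12328 and Vamp7-ps, and the remaining genes were 2900097C17Rik, Gm26532, Gm10076, 2010320M18Rik, Gm10524 and Gm37194. Across the whole table, single-exon genes of 1 RPKM or more were split by annotated type. Of 60 such genes of noncoding types, 55 had a share of 1 in all 5 libraries, whereas 200 of 204 protein-coding ones had a share of 0. In the table of control 3, 49 of the 50 noncoding genes of this kind with a value stood at 0, and so did 16 of the 16 members with a value. For these 18 genes the deposited share thus followed the annotated type and the table, and their RPKM counted the same reads that the ratio placed in introns.

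**Figure D1:**
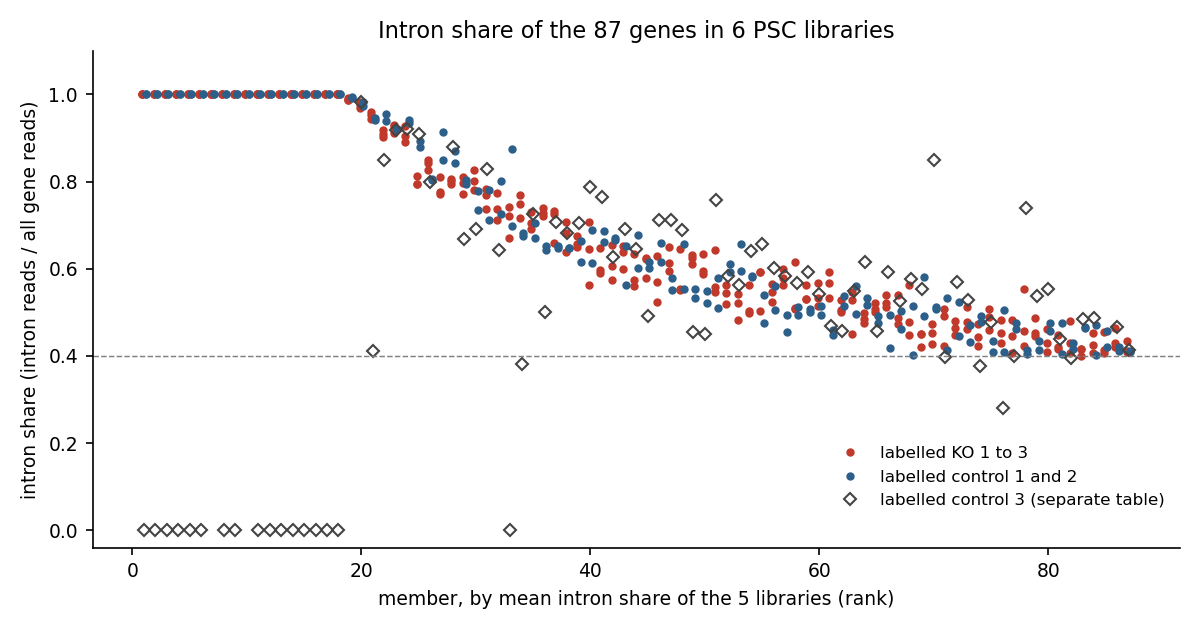
Intron share (intron reads over all reads of the gene, vertical axis) of the 87 genes, ordered by the mean of the 5 libraries (horizontal axis). Red points are the libraries labelled KO 1 to 3, blue points control 1 and 2, and open diamonds control 3 from its separate table, and the dashed line is the 0.40 limit. The first 18 genes stand at 1 in the 5 libraries and, where listed with reads, at 0 in control 3, and 60 of the 82 genes with a control 3 value are at or above the line.

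Beside the rule, control 3 gave a share for 82 of the 87 genes. It was at least 0.40 in 60 and below in 22. Among the 66 genes of the second class with a value, 27 were above the range of the 5 libraries, 19 below it and 20 within it, and the median was 0.583 in control 3, against 0.567, 0.562 and 0.552 in KO 1 to 3 and 0.559 and 0.553 in control 1 and 2. Besides the 16 genes with a share of 1 in the 5 libraries, the 6 genes under 0.40 in control 3 were Gm43305 (0), Kin (0.282), Tmtc1 (0.376), Acsf2 (0.381), Nfatc2 (0.395) and Tnfaip6 (0.397). Tmtc1 had shares of 0.474, 0.443 and 0.423 in KO and 0.492 and 0.477 in control 1 and 2, at 6.20, 6.23 and 7.17 RPKM in KO and 4.14 and 5.86 RPKM in control. Nfatc2, the gene of a transcription factor activated by calcineurin, had shares of 0.480, 0.430 and 0.406 in KO and 0.430 and 0.417 in control 1 and 2, at 10.6, 20.3 and 15.7 RPKM in KO and 13.3 and 11.2 RPKM in control. Tnfaip6 had shares of 0.508, 0.492 and 0.422 in KO and 0.532 and 0.414 in control 1 and 2, at 23.5, 31.0 and 34.7 RPKM in KO and 31.5 and 29.3 RPKM in control. Kin had shares of 0.453, 0.431 and 0.483 in KO and 0.505 and 0.408 in control 1 and 2. Of Tmtc1, Nfatc2 and Tnfaip6, Tmtc1 alone was higher in level in every KO library than in control 1 and 2, without passing the test (adjusted p = 0.208 by limma). Gm43305, with shares of 0.671, 0.720 and 0.743 in KO and 0.875 and 0.698 in control 1 and 2, has no intron in GENCODE M21. Rsph3b also stood far from the other 5 libraries, at 0.412 in control 3, against 0.952, 0.959 and 0.943 in KO and 0.941 and 0.946 in control 1 and 2. Coq10b, which encodes a mitochondrial coenzyme Q-binding protein, and Ccdc58 went the other way, with 0.739 and 0.849 in control 3. The tables do not use the same gene models: 60 of the 83 members present in both have the GENCODE M21 coordinates in the table of control 3. Rn7sk, CT010467.1, Gm47283 and Gm16486 have no row there, and Gm5586 had no reads.

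By level, the mitochondrial rRNA mt-Rnr2 came first with a mean of 446 RPKM, followed by n-R5-8s1 (93.4 RPKM), mt-Rnr1 (87.8 RPKM), Neat1 (67.1 RPKM), 2900097C17Rik (66.3 RPKM), Srsf7 (60.7 RPKM), U2af1 (49.5 RPKM), Gm26917 (41.4 RPKM), Mir6236 (36.6 RPKM) and Sspn (33.6 RPKM). mt-Rnr2 had 486, 365 and 340 RPKM in the libraries labelled KO, against 449 and 591 RPKM in those labelled control, and mt-Rnr1 had 97.3, 71.7 and 73.0 RPKM, against 86.98 and 110 RPKM. Both overlapped between the groups. Mir6236 was at 22.8, 31.1 and 35.7 RPKM in KO and 42.9 and 50.5 RPKM in control, lower in all KO libraries without passing the test (log2 fold change −0.65, SE 0.187, adjusted p = 0.0705 by limma), with only 17 reads in control 3. The 2 genes with the lowest means in the class at 1, Gm4202 and Gm37194, lay just over the limit at 5.29, 4.53 and 5.16 RPKM in KO and 6.00 and 5.82 RPKM in control for Gm4202, and 4.17, 5.18 and 5.65 RPKM in KO and 5.63 and 7.55 RPKM in control for Gm37194. The median level was 14.5 RPKM in this class and 7.91 RPKM in the second.

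Of the class at 1, Gm5586, Rps3a2, Gm10524 and Gm26532 passed the test of level and are described with it further on, and the other 14 did not. Rn7s1 was lower in every KO library, at 10.8, 13.8 and 10.3 RPKM in KO and 15.5 and 24.4 RPKM in control (log2 fold change −0.71, SE 0.202, adjusted p = 0.0671 by limma). Vamp7-ps was lower too, at 15.9, 13.8 and 19.04 RPKM in KO and 20.5 and 23.5 RPKM in control (−0.42, SE 0.150, adjusted p = 0.120). n-R5-8s1 (69.9, 100 and 112 RPKM in KO, 76.0 and 110 RPKM in control) and Rn7sk (50.1, 15.5 and 14.8 RPKM in KO, 24.4 and 37.2 RPKM in control) varied as much within a group as between the groups. 2900097C17Rik was narrow, at 68.7, 71.9 and 64.6 RPKM in KO and 64.6 and 61.6 RPKM in control. Gm9800 had 8.55, 11.4 and 10.8 RPKM in KO and 15.2 and 9.93 RPKM in control, and Gm12328 had 12.03, 10.2 and 4.37 RPKM in KO and 9.37 and 8.94 RPKM in control. Gm10076 had 6.54, 7.87 and 8.74 RPKM in KO and 6.64 and 6.28 RPKM in control, and 2010320M18Rik 9.89, 5.99 and 5.46 RPKM in KO and 4.62 and 7.16 RPKM in control. These 4 genes overlapped between the groups.

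Just inside the limits the rule took Stag1 (lowest share 0.401), Lpp (0.403) and Adarb1 (0.403), and just outside it left Kpna1 (0.399) and Ell (0.399). On the side of level, Zfp948 (5.03 RPKM), Fbxl17 (5.15 RPKM) and Acsf2 (5.17 RPKM) were in and Tcf7l1 (4.99 RPKM), Gm37352 (4.96 RPKM) and Arid1b (4.95 RPKM) were out.

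Within the second class the members differed in length and in how densely their introns were read. Intron reads per kilobase were set against exon reads per kilobase for the 62 members with introns for which both could be computed. In 13 of them (20.97%) the introns reached 20% or more of the exon density, against 4.35% of the other tested genes with introns, and in 29 the introns were under 5%. The first group had a median gene length of 39033 bases and the last a median of 307868 bases, with Kcnma1, Zbtb20 and Gpc6 among the longest. Among all 65 members with annotated introns the median length was 129431 bases, against 24137 bases in 10544 other tested genes, and 37 members (56.9%) were longer than 100 kb, against 12.5%. Those at 20% or more ranged from 3707 to 421059 bases, and the shortest of those under 5% was Chd1 at 67644 bases. For Chd1, 6513 intron reads at 3.88 per kilobase imply more intron than its 67644 bases can hold. Its density is therefore not reliable, and the counts and medians above include it. Share and density come from the same reads, so the density is a description and not a separate test of the rule.

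**Figure D2:**
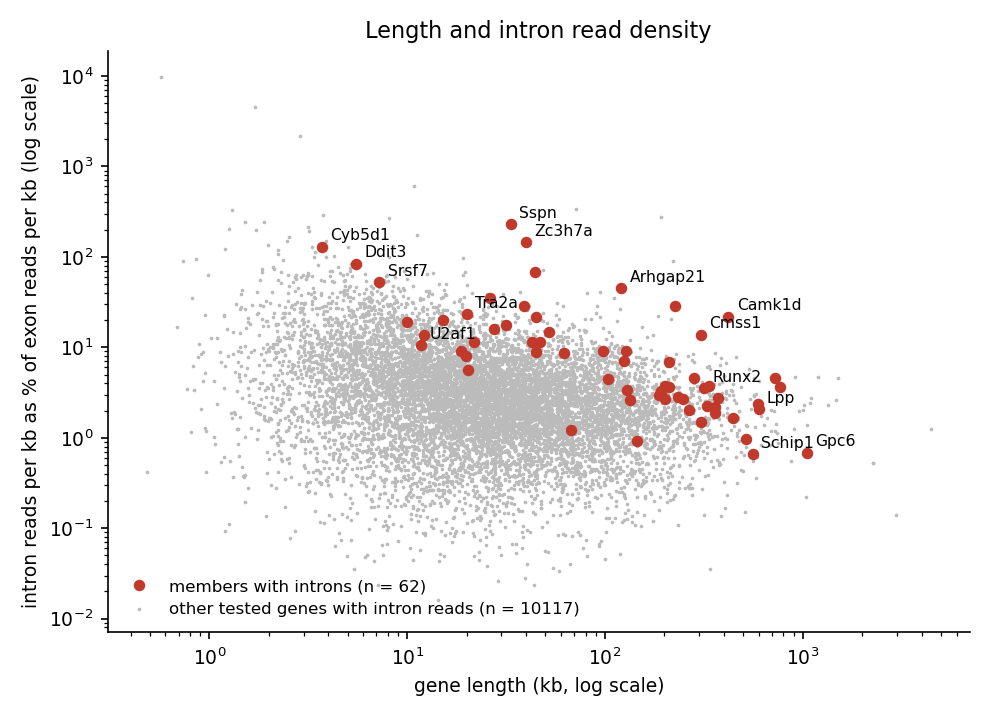
Intron reads per kilobase as a percentage of exon reads per kilobase (vertical axis, log scale) against gene length in kilobases (horizontal axis, log scale). Red points are the 62 members with introns and a computed density, of which that of Chd1 is not reliable. Grey points are 10117 other tested genes with intron reads. The members lie along the upper right edge, from Cyb5d1 (3707 bases, 130%) to Gpc6 (1051230 bases, 0.686%).

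Sspn, which encodes sarcospan of the dystrophin-associated complex, had the densest introns of the members, at 228% of its exon density. Its level was 37.4, 38.5 and 34.4 RPKM in KO and 25.1 and 32.4 RPKM in control. Its shares were 0.919, 0.902 and 0.909 in KO and 0.939 and 0.955 in control 1 and 2, and 0.850 in control 3. Zc3h7a, an RNA-binding zinc finger gene, followed at 145%, with 2 small RNA genes in its introns, Gm23935 and Gm24145. Cyb5d1 (130%) and Ddit3 (84.4%), the stress-induced transcription factor CHOP, are short genes of 3707 and 5515 bases. The remaining genes of this group were Rsph3b (68.5%), Srsf7 (53.0%), Arhgap21 (45.0%), Zswim4 (35.0%), 2610005L07Rik (28.6%), the chromatin remodeller gene Chd9 (28.4%), Tra2a (23.3%), the kinase gene Camk1d (21.8%) and Acsf2 (21.6%).

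Between 5% and 20% stood 20 members: Gm21092, Gm12473, Gm47283, Rnf19b, Pmepa1, Cmss1, Kin, Ifrd1, Mia3, Zfp948, U2af1, Tnfaip6, Adarb1, Arih1, Slc22a4, Uck2, Coq10b, Nfatc2, Sik3 and Ccdc58. Mia3 encodes the cargo receptor that exports procollagen from the endoplasmic reticulum, and Tnfaip6 a secreted hyaluronan-binding protein. Adarb1 encodes an RNA-editing enzyme, and Rnf19b and Arih1 encode ubiquitin ligases.

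The 29 long genes under 5% included several known from bone and connective tissue. Runx2, the transcription factor that directs osteoblast differentiation, had 6.56, 6.19 and 5.45 RPKM in KO and 7.63 and 7.44 RPKM in control, with shares of 0.562, 0.4995 and 0.503 in KO and 0.581 and 0.583 in control, so that level and share were both lower in every KO library, neither past its test (adjusted p = 0.203 and 0.385 by limma). Ext1 builds the heparan sulfate chain, Chsy3 the chondroitin sulfate chain, Gpc6 is a glypican that carries heparan sulfate, Antxr1 binds collagen at the cell surface and Ppp3ca is the catalytic subunit of calcineurin. Of the transcription factor genes, Zbtb20, Zbtb7c, Foxp1 and Etv6 belonged here, as did Stag1 (cohesin), the receptor kinase gene Mertk and the signalling genes Prkd1, Farp1, Evl and Cmip. Chd1 (a chromatin remodeller) was counted here by a density that is not reliable. The others were Kcnma1, Ldlrad4, Tmtc1, Eml4, Cpne8, Ambra1, Pdzrn4, Lpp, Fbxl17, Gmds, Snx24 and Schip1. Tiam2 and 2010111I01Rik, also long, had no usable density.

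What else lies in the introns was read from the annotation. A transcript of the type retained intron is annotated for 38 of the 65 members with introns (58.5%), against 60.5% of the other tested genes, and in 9 members it covers a whole intron (Srsf7, Tra2a, Arhgap21, Ifrd1, Gpc6, Chd9, Stag1, Eml4 and Evl). Small RNA genes lie in introns of 13 (20%), against 10.9%, among them Mir23b in 2010111I01Rik, Mir342 in Evl, Mir28a in Lpp and Mir6239 in Gpc6. An exon of another gene of 1 RPKM or more lies in an intron of 10 (15.4%), against 9.996%. The members also hold more intron sequence, with a median total of 123393 bases, against 19093 bases in the other tested genes. These percentages were not adjusted for length. Acsf2, an acyl-CoA synthetase gene at 4.85, 5.13 and 5.54 RPKM in KO and 4.43 and 5.91 RPKM in control, holds in an intron, on the opposite strand, all of Chad, which encodes the cartilage protein chondroadherin at 4884 RPKM. Its share was 0.749, 0.768 and 0.716 in KO, 0.675 and 0.682 in control 1 and 2 and 0.381 in control 3, and Chad had 5310, 5500 and 5225 RPKM in KO, 3718 and 4665 RPKM in control 1 and 2 and 3693 RPKM in control 3. Cmss1 likewise contains Filip1l on the opposite strand, and Gm12473 is antisense to Npr2, the receptor of C-type natriuretic peptide. None of the sources used here states whether counting used strand, so reads of Acsf2, Cmss1 or Gm12473 and of the gene on the other strand cannot be told apart.

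2 neighbouring members on chromosome 17 lie at an 18S rRNA locus. Gm26917 (chr17:39843013-39846341, plus strand) ends 11 bases before CT010467.1 (chr17:39846353-39848827, minus strand, type rRNA), which contains all 1849 bases of the RefSeq entry Rn18s-rs5. Their shares were 0.928, 0.930 and 0.911 in KO and 0.920 and 0.920 in control for Gm26917, and 0.992, 0.987 and 0.988 in KO and 0.993 and 0.993 in control for CT010467.1. In GENCODE M21, 2466 of the 2475 bases of CT010467.1 are exon, so its high share does not mean reads in introns of that annotation. The levels did not separate the groups: Gm26917 had 37.8, 37.1 and 47.5 RPKM in KO and 39.0 and 45.6 RPKM in control, and CT010467.1 had 15.9, 21.3 and 19.5 RPKM in KO and 16.4 and 18.6 RPKM in control. Cmss1 had the next highest share, 0.969, 0.975 and 0.983 in KO and 0.974 and 0.983 in control, at a level of 5.35 RPKM.

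The 87 genes held 11.8%, 12.1% and 11.9% of all intron reads in the libraries labelled KO and 14.99% and 16.4% in those labelled control 1 and 2. The class at 1 accounted for 1.27%, 1.14% and 1.09% in KO and 1.44% and 1.60% in control. Over the whole library the share of reads in introns was 10.6%, 9.996% and 9.77% in KO, against 8.46% and 9.11% in control 1 and 2 and 11.8% in control 3, and without the 87 genes 9.50%, 8.93% and 8.75% in KO, against 7.31% and 7.76% in control 1 and 2. The groups of the main table did not overlap in either measure, and the members summed held a smaller part of the intron reads in KO. That sum leans on genes with many intron reads and is not a trait of each member. Sspn had 29554, 17664 and 20081 intron reads in KO and 21940 and 37113 in control 1 and 2. CT010467.1 had 20043, 11666 and 13112 in KO and 17734 and 19778 in control 1 and 2. No test was run on these values.

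To ask which of the 87 genes differed in level with the loss of Prmt5, log2(RPKM + 1) was fitted with limma over the 11045 genes of at least 1 RPKM, with p-values adjusted over all of them. 16 of the 87 genes passed an adjusted p of 0.05, 14 higher and 2 lower in KO. Over all tested genes 10.1% passed, 8.46% higher and 1.67% lower. The level limit of 5 RPKM is a mean over 3 KO and 2 control libraries, which favours genes higher in KO. Gm5586, Rps3a2, Gm10524, Gm43305, Ccdc58, Kin, Slc22a4 and Prkd1 had control means under 5 RPKM and met the limit only through KO. The counts by direction are therefore not independent of the rule. The median log2 fold change was 0.07 in the members and 0.14 in all genes, so that a gene at the median of the table reads as slightly higher in KO. With DESeq2 size factors, which put the median of all genes at −0.00, the median of the members was −0.07 and the 16 that passed were 10 higher and 6 lower in KO, against 3.75% and 2.68% of all genes (6.43% in all). Every KO library was above both controls in 29 members and below both in 16, as were 35.6% and 10.2% of all tested genes.

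**Figure D3:**
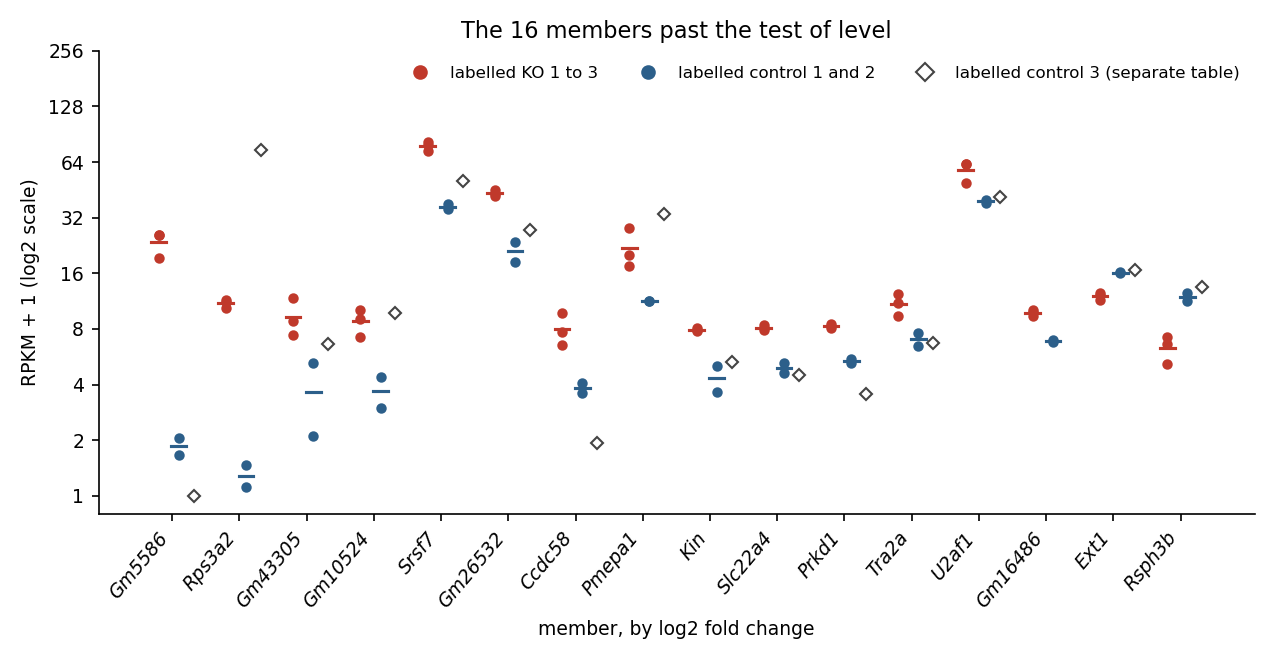
RPKM + 1 (vertical axis, log2 scale) of the 16 members that passed the test of level, ordered by fold change. Red points are the 3 libraries labelled KO, blue points control 1 and 2, bars the group means and open diamonds control 3, which did not enter the fit. 14 genes are higher and Ext1 and Rsph3b lower in every KO library, and control 3 lies below the KO libraries for Srsf7 but above the KO libraries for Rps3a2.

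3 of the 14 are splicing factor genes. Srsf7 encodes a serine/arginine-rich protein that binds exonic enhancers, and it had 72.6, 81.2 and 78.1 RPKM in KO and 36.9 and 34.6 RPKM in control, with 49.2 RPKM in control 3. The means were 77.3 ± 4.34 RPKM in KO (SD, n = 3) and 35.7 ± 1.60 RPKM in control (SD, n = 2), and limma put the gene higher in KO (log2 fold change 1.09, SE 0.108, adjusted p = 0.00221). Its share was 0.562, 0.530 and 0.531 in KO and 0.508 and 0.5003 in control, with 0.593 in control 3, so intron reads were higher along with exon reads. Tra2a, a splicing activator of the transformer-2 family, had 8.38, 11.3 and 10.04 RPKM in KO and 5.46 and 6.61 RPKM in control, with 5.71 RPKM in control 3 (log2 fold change 0.63, SE 0.154, adjusted p = 0.0433). U2af1 had 48.4, 61.1 and 61.6 RPKM in KO and 39.1 and 37.5 RPKM in control, with 40.4 RPKM in control 3 (log2 fold change 0.55, SE 0.134, adjusted p = 0.0423). All 3 genes were higher in every KO library than in any control library, control 3 included. Tra2a and U2af1 are the less firm, since Tra2a passed in none and U2af1 in 1 of the 5 fits that leave out a library, neither passed with DESeq2 size factors, and 54.7% of the U2af1 exon reads of control 3 were unique.

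Gene lists, which were written with earlier results known, held Srsf7 and Tra2a but not U2af1. Srsf7 and Tra2a are the only members among 36 genes with detained introns, of which 17 rose and none fell in KO (9 passed in edgeR on recovered reads), with a median log2 fold change of 0.43, against 0.14 over all genes. Of 15 genes of nuclear speckles and paraspeckles 5 rose and none fell, and of 24 tested host genes of snoRNAs 6 rose and none fell, where 8.46% of all genes were called higher. edgeR called only 3 of the 15 and 2 of the 24, in a fit that called 8.47% of all genes. None of 11 nuclear and other long noncoding RNAs and none of 9 minor spliceosome genes passed the level test in limma, with 2 and 5 at an unadjusted p under 0.05 and 1 and 0 called by edgeR. Neat1, the architectural RNA of paraspeckles and the only member of the lncRNA list, had 58.4, 67.3 and 61.4 RPKM in KO and 76.6 and 71.7 RPKM in control, with 98.3 RPKM in control 3. It was below both controls in every KO library but not past the test (log2 fold change −0.25, SE 0.112, adjusted p = 0.201), with shares of 0.771, 0.796 and 0.811 in KO and 0.795 and 0.805 in control. The exon length behind its RPKM was 3004 bases, against 20771 bases of Neat1 in GENCODE M21, so much of the annotated transcript was counted as intron. In the same way the counted exons of Srsf7 (2279 of 3550 bases), Tra2a (3350 of 6945 bases) and U2af1 (974 of 2598 bases) were shorter than the annotated union of their exons.

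The 2 largest differences were those of the Rps3a pseudogenes. Gm5586 (chr7:16719116-16719910, minus strand) had 24.9, 24.7 and 18.4 RPKM in KO and 0.663 and 1.05 RPKM in control (log2 fold change 3.67, SE 0.172, adjusted p = 0.000476). Rps3a2 (chr14:88123017-88123808, minus strand) had 9.43, 10.2 and 10.4 RPKM in KO and 0.111 and 0.468 RPKM in control (log2 fold change 3.11, SE 0.160, adjusted p = 0.000478). Their transcripts are 98.5% and 99.5% identical to that of Rps3a1, which encodes a protein of the small ribosomal subunit. In reads, Gm5586 had 276, 195 and 170 in KO, against 6 and 9 in control and 0 in control 3, and Rps3a2 had 104, 80 and 96 in KO, against 1 and 4 in control and 403 in control 3. Rps3a1 had 1630, 1137 and 1235 reads in KO, against 1750 and 1797 in control and 728 in control 3, and it was lower in KO (log2 fold change −0.51, SE 0.111, adjusted p = 0.0323). Summed over Rps3a1 and its near copies, and scaled to the mapped reads of the library (RPM), the reads came to 144, 142 and 129 in KO, against 155 and 168 in control 1 and 2 and 204 RPM in control 3. The 2 pseudogenes held 18.9%, 19.4% and 17.7% of that sum in KO, 0.398% and 0.718% in control 1 and 2 and 28.4% in control 3, where Rps3a3 had a further 286 reads and none in the other 5 libraries. Only 20.1% of the Rps3a2 reads of control 3 were unique. The levels of both pseudogenes are uncertain, because reads of the copies could be split among them in counting.

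**Figure D4:**
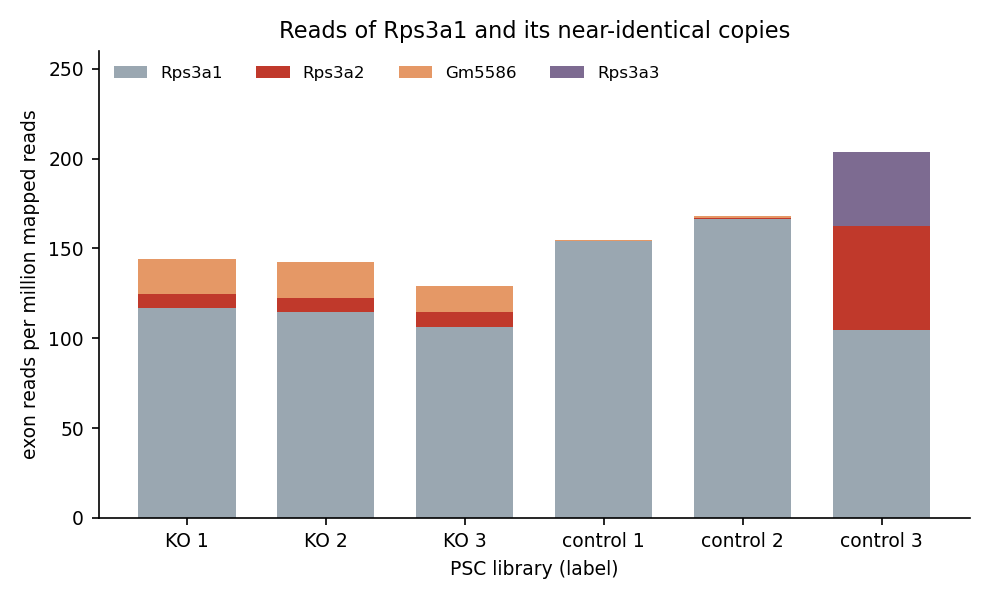
Exon reads scaled to the mapped reads of the library (RPM) of Rps3a1 (grey), Rps3a2 (red), Gm5586 (orange) and Rps3a3 (violet), stacked for each PSC library. The copies other than Rps3a1 are visible in KO 1 to 3 (22.9 to 27.7 RPM for Gm5586 and Rps3a2 together) and in control 3 (57.9), and nearly absent in control 1 and 2 (0.615 and 1.20).

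9 of the 25 members searched have a copy elsewhere in the transcriptome with at least 95% identity over at least 90% of a transcript of the gene. Besides the Rps3a pair they are Gm4202 (99.9% identical to Ywhaz), Gm9800 (99.1% to Ptma), Gm10076 (99.5% to Rpl41), Gm12328 (96.5% to Ubb), Rn7s1 (100% to Rn7s2) and the pair Gm21092 and 2610005L07Rik (99.1% to each other), in which Gm21092 also matches Cdh11, the cadherin of mesenchymal cells, at 95.2%. The levels of these genes are uncertain for the same reason. For 2610005L07Rik the match is to a transcript of 948 bases, while 4163 exon bases were counted for the gene, so it concerns only part of the gene. In control 3, where unique reads are listed, under 60% of exon reads were unique in 9 of 76 members with at least 20 reads, from none of the 32 reads of Rn7s1 to 59.5% in 2610005L07Rik, and including Schip1 (4.26%) and Rsph3b (29.8%).

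3 further genes of noncoding types rose. Gm26532 (chr8:84208920-84209609, plus strand), a single-exon lincRNA, had 42.1, 44.4 and 40.9 RPKM in KO and 22.7 and 17.5 RPKM in control, with 26.5 RPKM in control 3 (log2 fold change 1.05, SE 0.133, adjusted p = 0.00538). Gm10524 had 8.12, 6.28 and 9.09 RPKM in KO and 3.39 and 2.01 RPKM in control (log2 fold change 1.27, SE 0.207, adjusted p = 0.0117), and Gm43305 had 7.84, 10.7 and 6.47 RPKM in KO and 1.12 and 4.21 RPKM in control (log2 fold change 1.47, SE 0.359, adjusted p = 0.0433). Control 3 had 8.73 RPKM of Gm10524 and 5.60 RPKM of Gm43305, above the other controls, and for Gm10524 within the range of the KO libraries. Gm16486, not found in GENCODE M21, had 9.13, 8.41 and 8.84 RPKM in KO and 5.94 and 5.80 RPKM in control (log2 fold change 0.51, SE 0.114, adjusted p = 0.0340), and it passed in none of the 5 fits that leave out a library.

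Among the other protein-coding genes, Slc22a4, a transporter of ergothioneine and organic cations, had 7.06, 7.41 and 6.87 RPKM in KO and 4.24 and 3.63 RPKM in control, with 3.49 RPKM in control 3 (log2 fold change 0.72, SE 0.125, adjusted p = 0.0146). Ccdc58, which encodes a mitochondrial protein, had 6.74, 5.59 and 8.78 RPKM in KO and 2.58 and 3.10 RPKM in control, with 0.939 RPKM in control 3 (log2 fold change 1.05, SE 0.184, adjusted p = 0.0152). Kin, a nucleic acid-binding zinc finger gene, had 7.07, 6.79 and 6.91 RPKM in KO and 2.63 and 4.02 RPKM in control, with 4.30 RPKM in control 3 (log2 fold change 0.89, SE 0.161, adjusted p = 0.0169). These 3 were higher in every KO library than in any of the 3 control libraries. Prkd1, the gene of protein kinase D1, had 7.51, 7.06 and 7.35 RPKM in KO and 4.21 and 4.49 RPKM in control, with 2.55 RPKM in control 3 (log2 fold change 0.63, SE 0.118, adjusted p = 0.0184). Pmepa1, a membrane protein gene induced by TGF-β that dampens its signal, had 19.1, 16.6 and 27.3 RPKM in KO and 10.3 and 10.4 RPKM in control (log2 fold change 0.93, SE 0.194, adjusted p = 0.0276), but 32.5 RPKM in control 3, above all KO libraries.

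2 genes fell. Rsph3b, a radial spoke protein gene of cilia and flagella whose reads in control 3 were mostly not unique, had 6.23, 4.18 and 5.65 RPKM in KO and 11.6 and 10.3 RPKM in control, with 12.6 RPKM in control 3 (log2 fold change −0.92, SE 0.166, adjusted p = 0.0168). Ext1 had 10.5, 11.5 and 11.2 RPKM in KO and 15.1 and 15.2 RPKM in control, with 15.6 RPKM in control 3 (log2 fold change −0.43, SE 0.109, adjusted p = 0.0485). Both were lower in every KO library than in any control library, and Ext1 passed in none of the 5 fits that leave out a library. Next below the threshold were Mertk (log2 fold change 0.61, SE 0.175, adjusted p = 0.0697), with 14.8, 18.2 and 13.1 RPKM in KO and 11.2 and 8.25 RPKM in control, and Antxr1 (−0.57, SE 0.174, adjusted p = 0.0807), with 5.41, 4.57 and 6.41 RPKM in KO and 7.34 and 9.88 RPKM in control.

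Of the 16 genes, 4 passed in all 5 fits that leave out a library (Srsf7, Gm26532, Gm5586 and Rps3a2), and 5 of the 15 that control 3 lists passed with all 6 libraries (Srsf7, Gm26532, Gm5586, Slc22a4 and Rsph3b). Srsf7, Gm26532 and Gm5586 stood in both lists. edgeR on the recovered exon reads called 11 members, of which 9 were among the 16, 7 higher and 4 lower, while 8.47% of all genes passed there (4.82% higher, 3.65% lower).

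The second comparison asked whether the intron share itself differed between the genotypes. None of the 87 genes passed an adjusted p of 0.05 in limma on the log2 odds of the share, in a fit that called 0.0841% of 10697 genes. An unadjusted p under 0.05 was reached by 15 members, all in the class below 1, against 16.3% of all genes. Over that class the median difference was 0.01 in log2 odds, against 0.15 over all genes. Every KO library was above both controls in 17 members and below both in 16, as were 24.0% and 10.4% of all tested genes. The 18 genes at 1 could not differ. Since every share had to be at least 0.40 in both groups, a gene whose introns were read only in KO could not be among the members.

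**Figure D5:**
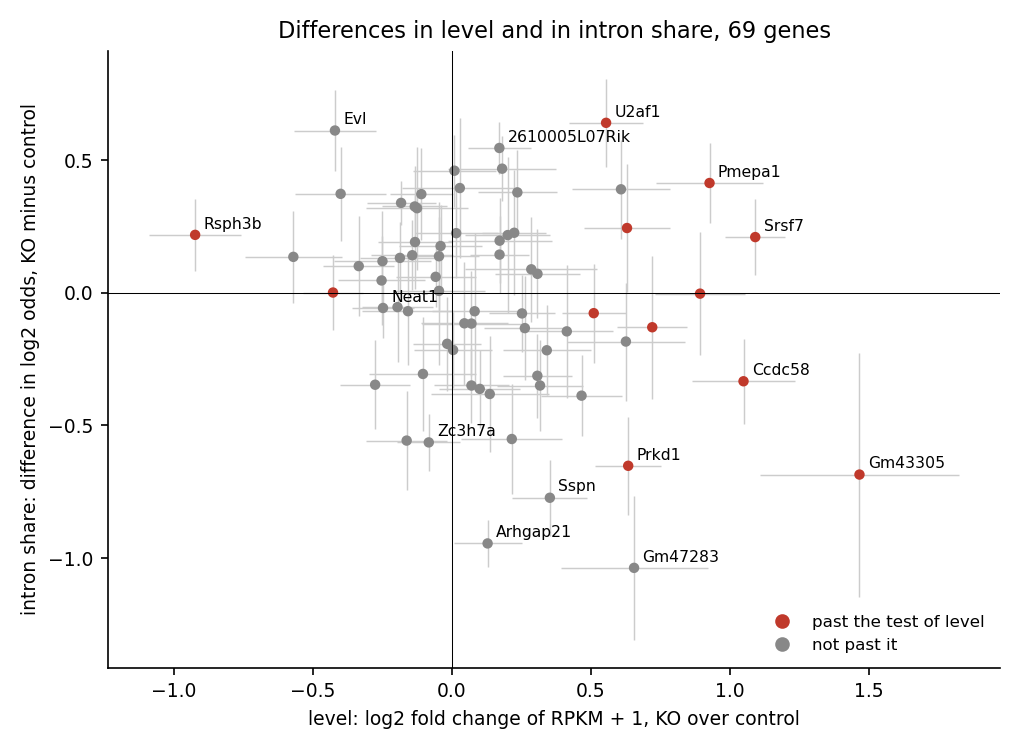
Difference in intron share (log2 odds, KO minus control, vertical axis) against log2 fold change of RPKM + 1 (KO over control, horizontal axis) for the 69 members with a share under 1. Red points passed the test of level, grey points did not, and lines are the standard errors of both fits. No point passed the test of share, and Arhgap21 (−0.95) combines one of the lowest share differences with a small error.

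Arhgap21 came closest. Its share was 0.795, 0.794 and 0.812 in KO and 0.880 and 0.894 in control 1 and 2, with 0.909 in control 3, a difference of −0.95 in log2 odds (SE 0.0870, adjusted p = 0.0512 by limma). It was lower in every KO library than in any control library, and the level hardly differed, at 6.09, 6.78 and 7.06 RPKM in KO and 5.95 and 6.01 RPKM in control. The edgeR interaction of genotype and read class on recovered reads, an alternative, called it (−0.97, adjusted p = 0.0204) as its only member, in a fit that called 3.05% of 13594 genes, 2.85% higher and 0.199% lower in KO.

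Further members had small errors and no call. The shares of Zc3h7a were 0.807, 0.802 and 0.794 in KO and 0.843 and 0.871 in control, with 0.879 in control 3 (−0.56, SE 0.107, adjusted p = 0.112), and those of Sspn, given above, differed by −0.77 (SE 0.144, adjusted p = 0.112). Gm47283, on chromosome Y, was lower too, at 0.777, 0.772 and 0.811 in KO and 0.915 and 0.849 in control (−1.04, SE 0.271, adjusted p = 0.178 by limma). The PSC libraries differed in Xist, at 0.024, 0 and 1.13 RPKM in KO 1 to 3. Control 1 to 3 had 0.034, 1.72 and 4.04 RPKM, so the sexes may be mixed. The part of sex in the Gm47283 values was not tested. For Sspn the share of control 3, 0.850, lay below every KO library. Zc3h7a, Sspn and Gm47283 all had lower shares in every KO library than in control 1 and 2, as Arhgap21 did. The opposite held for 2610005L07Rik, at 0.740, 0.727 and 0.721 in KO and 0.653 and 0.642 in control (0.55, SE 0.0970, adjusted p = 0.108), for U2af1, at 0.567, 0.594 and 0.532 in KO and 0.447 and 0.459 in control (0.64, SE 0.166, adjusted p = 0.175), and for Evl, at 0.579, 0.562 and 0.601 in KO and 0.455 and 0.494 in control (0.61, SE 0.154, adjusted p = 0.167). 2610005L07Rik was at 0.501 in control 3, U2af1 at 0.469 and Evl at 0.584, so only for Evl did control 3 fall among the KO values. Ldlrad4, which encodes a membrane protein that dampens TGF-β signalling, had shares of 0.827, 0.843 and 0.850 in KO and 0.804 and 0.806 in control, with 0.799 in control 3 (0.34, SE 0.0842, adjusted p = 0.165). Prkd1 combined a level that rose with a lower share, at 0.521, 0.541 and 0.483 in KO and 0.658 and 0.595 in control (−0.65, SE 0.186, adjusted p = 0.199).

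Osteoclasts, which did not enter the rule, were read as counts per gene, with no intron values. At least 1 count was present for 66 of the 87 genes, and 55 passed the filter on low counts. Library totals were 3608940, 1234919 and 984885 in the libraries labelled KO, against 2513440, 2606215 and 2805824 in those labelled control. The 5 members with the highest level were Gm26917, Neat1, Ext1, Rnf19b and Lpp. Gm26917 at the rRNA locus had 2369, 1457 and 3226 CPM in KO and 3130, 3518 and 3854 CPM in control (counts scaled to the library size by TMM) and overlapped between the groups (log2 fold change −0.58, SE 0.199, adjusted p = 0.950 by edgeR). Neat1 had 946, 1248 and 1402 CPM in KO and 1228, 1079 and 1061 CPM in control, and Ext1 had 444, 550 and 534 CPM in KO and 511, 456 and 398 CPM in control, so Ext1, lower in the PSC libraries labelled KO, was not lower here. Rnf19b (277, 327 and 256 CPM in KO, 278, 276 and 286 in control) and Lpp (178, 182 and 235 CPM in KO, 224, 193 and 158 in control) overlapped as well.

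None of the 55 members passed an adjusted p of 0.05 in the quasi-likelihood test of edgeR, in a fit that called 0.0373% of 10724 genes, and DESeq2 called none. At an unadjusted p under 0.05 there were 2, Gm26917 and Tra2a, against 4.76% of all genes. Srsf7 had 99.5, 86.5 and 87.2 CPM in osteoclasts labelled KO and 98.1, 100 and 122 CPM in those labelled control (log2 fold change −0.21, SE 0.125, adjusted p = 0.950), and U2af1 differed by 0.13 (SE 0.148, adjusted p = 0.959). Neither of the PSC differences in these splicing factor genes was thus seen in the osteoclast counts, and whether the PSC and osteoclast effects differ was not tested. Osteoclast control 3 had 1506 counts of Xist, against 0 or 1 in the other 5 osteoclast libraries, and its part in these values was not tested.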

How the data were processed

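RNA was sequenced from 6 PSC and 6 osteoclast samples of C57BL/6 mice with Ion Torrent libraries. The labels and methods name FastQC 0.1.1.8, Trim Galore 0.6.4, kallisto 0.46.0 and DESeq2 on GRCm38. kallisto gives no intron reads, and none of the sources used here names the aligner or the use of strand behind the PSC tables. For the PSCs the authors deposited RPKM and the ratio of intron to total gene reads (the intron share), and for control 3, in a separate table, also counts of exon, intron and unique reads with exon lengths. The osteoclast table deposited by the authors holds raw counts per gene. It also holds the authors' own comparison (p-value, FDR and a signed fold change score, as deposited), which was not used.

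The 87 genes and the gene lists were chosen with earlier results of these data known. RPKM steps gave back whole reads within 0.05 reads for 99.9% of 26128 detected genes, using GENCODE M21 exon lengths where they matched. Level was tested with limma 3.58.1 (R 4.3.3) on log2(RPKM + 1), keeping the 11045 genes whose mean reached 1 RPKM. The plan named lmFit and eBayes without saying whether a variance trend was used; the fit without a trend was seen first, and the trend was then adopted as in the earlier processing of this series. It called 16 members and 1118 genes, against 12 and 925 without the trend. The log2 odds of the intron share, with 0.005 added to numerator and denominator, were fitted in the same way, and osteoclast counts went through edgeR 4.0.16 (glmQLFit, glmQLFTest) after TMM scaling and filterByExpr. All p-values are two-sided with Benjamini-Hochberg adjustment over all genes of the fit. A fold change on log2(RPKM + 1) understates the change of low genes. Scripts were tested on simulated data. Near copies were searched with BLAST+ 2.17.0+ in the GENCODE M21 transcripts for 25 members. Sequences come from GENCODE M21 and RefSeq.

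Alternatives were DESeq2 1.42.0 size factors, edgeR on recovered reads, other filters and offsets, all 6 PSC libraries, a replicate block and leaving out each library. Values were given in each library of the main PSC table for the 10 members with the highest level, the 10 with the smallest adjusted p of level, those with a control 3 share under 0.40 and those in a gene list, and every member was named. All 18 members with a share of 1, tied for the highest share, were included.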

Additional observations from a re-analysis of the deposited data

Results flagged for a closer look

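Tra2a, the gene of a splicing activator, had fold changes of opposite sign in the 2 cell types. In PSCs its log2 fold change was 0.63, with 8.38, 11.3 and 10.04 RPKM in the libraries labelled KO and 5.46 and 6.61 RPKM in those labelled control. In osteoclasts it was −0.26, with 91.02, 82.3 and 89.3 CPM in KO and 109, 114 and 92.6 CPM in control (unadjusted p = 0.0493, adjusted p = 0.950 by edgeR). Every KO library was above both controls in PSCs and below all 3 controls in osteoclasts. The difference between the cell types was not tested, the cells also differ in age of the mice, culture and unit, and the PSC call itself was lost in all 5 fits that leave out a library.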

How the results depend on the processing

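The set of genes depends on its limits. It grew to 198 with a share of at least 0.30 and to 452 with a mean of at least 1 RPKM, and held 55 with a share of at least 0.50 and 36 with at least 10 RPKM. Leaving out each library gave 89 to 96. In the level fit the members called were 16 with DESeq2 size factors (12 of the 16 shared), 11 with edgeR and 16 with a pseudocount of 0.1, but 5 with all 6 libraries, 4 without the filter on low RPKM and 6 to 11 when leaving out each library. The genes called overall were 710 with size factors, 227 with all 6 libraries, 248 without the filter and 325 to 609 when leaving out each library, against 1118. In the share fit the edgeR interaction called 1 member and 414 genes, and leaving out each library 0 to 1 members (CT010467.1 without KO 1) and 1 to 4 genes. Overall 9 genes passed there, against 0 with all 6 libraries, 0 with at least 10 exon and 10 intron reads, 1 without the variance trend and 2 with an offset of 0.02. In osteoclasts the fit without a filter called 1 member, Gm26917 (−0.59, adjusted p = 0.000352), and 46 genes, and leaving out each library called no member and 0 to 9 genes, against 4. The alternatives without a variance trend, with a block over all 6 libraries and without single-exon genes were chosen after seeing the data. The cause of these differences was not tested, except that fits with fewer libraries have fewer degrees of freedom. The median log2 fold change of the members was 0.07 but −0.07 with size factors and with edgeR. The 16 members called in level and 7 named shares, run gene by gene, kept their direction under the alternatives run. For level the call was kept in 99 of these runs and lost in 107. Most other genes named were not run gene by gene.

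The deviations of same-numbered libraries correlated at −0.0633 to −0.0194 in PSCs and −0.0666 to 0.0604 in osteoclasts, so no pairing by number was seen. These values cannot exclude pairing, because each deviation was taken from a mean of only 3 libraries and PSC control 3 comes from the separate table. The study states that littermates were used unless otherwise noted. With the replicate block 2 members (Gm5586 and Rps3a2) and 67 genes passed the level test, and 1 member (Gm5586) and 4 genes with the replicate block over all 6 libraries. The share fit called 0 members and 0 genes with the block, and the osteoclast fit 0 members and 0 genes.

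Control 1 and 2 are the only controls of the main table, and at 36 exon reads of Ccdc58 and 51 of Kin in control 1, the share of such genes is limited by depth.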
